A study of Mus musculus with 132 samples.

Results

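The Nodal, BMP and LEFTY signalling genes described here are 10 genes chosen by name from the 32245 genes of the deposited table: the ligands Nodal, Gdf3 and Bmp4, the co-receptor Tdgf1, the receptors Acvr1b, Acvr2b, Bmpr1a and Bmpr2, and the antagonists Lefty1 and Lefty2. All 10 were in the table, and 8 of them had a count in at least 1 cell. Lefty1 and Lefty2 had none.

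The cells came from embryos of C57BL/6 x DBA F1 mice (C57BL/6NCrl and DBA/2NHsd in the study's methods), which were flushed at the 2-cell stage and cultured in KSOM medium. The medium held either a synthetic copy (mimic) of miR-381-3p or a scrambled mimic as the negative control. Controls therefore also received a small RNA. Cells were isolated at the 8-cell stage (E2.5) or the 32-cell stage (E3.5) and sequenced with Smart-seq2, which reads polyadenylated RNA along its whole length and carries no molecular identifiers. At the 8-cell stage 30 control and 24 mimic cells were sequenced, and 39 of each at the 32-cell stage. Each group was taken from 3 to 5 embryos. Mimics were used at 5 or 10 µM, and the labels tie neither a dose nor an embryo to a cell. The study's text assigns the higher dose to the 8-cell embryos and the lower to the 32-cell embryos, so stage and dose cannot be told apart. Each group is therefore 1 sample, no test between groups was run, and all differences below are descriptions of these cells.

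Nodal, GDF3, BMP4 and the LEFTY proteins belong to the TGF-beta superfamily. Nodal and GDF3 bind activin receptors with the help of an EGF-CFC co-receptor, of which CRIPTO, the product of Tdgf1, is the best known, and the receptors then phosphorylate the transcription factors SMAD2 and SMAD3. BMP4 binds its own type I and type II receptors and acts through SMAD1, SMAD5 and SMAD9, while LEFTY proteins block Nodal at its receptors and are themselves induced by it. In the mouse blastocyst Tdgf1 and Gdf3 are known as genes of the inner cell mass (ICM), and these pathways are best known for their later roles in the epiblast and in setting the body axes.

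The mimic copies the mature mmu-miR-381-3p of 22 bases, printed here because its seed, bases 2 to 8 in capitals, defines the sites that were searched for in the 10 genes. Its gene, Mir381, places it at chr12:109726870-109726891 on the plus strand (RefSeq, GRCm38.p6).
mmu-miR-381-3p: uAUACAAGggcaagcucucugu
The 8-base site complementary to the seed and followed by A, CTTGTATA, was present in the longest annotated 3' UTR of 0 of the 10 genes, against 3.12% of the 20746 genes with a 3' UTR (transcript strand, GENCODE M21, GRCm38). The shorter matches were searched for after the values were known. The 7-base match to the seed without the A, CTTGTAT, was present in Nodal alone, against 11.3% of all 3' UTRs. The 7-base match that lacks the last seed base, TTGTATA, was in Gdf3 and Bmpr1a once each and in Bmpr2 at 2 places, against 15.5% of all. These 5 matches are shown with their flanks, the matching bases in capitals.
Nodal, chr10:61424983-61424989, plus strand: tctgtaactttCTTGTATtctcaaaagtg
Gdf3, chr6:122605823-122605829, minus strand: attatatccaaTTGTATAtcttaagattt
Bmpr1a, chr14:34411311-34411317, minus strand: tgtagcatataTTGTATAaaatggaaata
Bmpr2, chr1:59872423-59872429, plus strand: gttactgtcctTTGTATAtttaacaaata
Bmpr2, chr1:59877306-59877312, plus strand: ttattttgcttTTGTATAagccatctgag
All 5 lie in the 3' UTR of a protein-coding gene. Bmpr2, with 2 of them, had the longest 3' UTR of the 10 genes, 8529 bases. The 6-base match to bases 2 to 7 of the seed, TTGTAT, which lies within each of the longer ones, was present in these 4 of the 10 genes, against 38.2% of all 3' UTRs. It was not found in Bmp4, Tdgf1, Acvr1b, Acvr2b, Lefty1 or Lefty2. A match in this window is a description and not a functional site.

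Total counts per cell ranged from 544866 to 3461022, and values are given as CPM, the count of a gene for every 1000000 counts of the cell, leaving out mitochondrial genes. Pooled CPM is the summed count of a set of cells over their summed total, with an exact Poisson 95% interval. A count of 0 in a single cell allows up to 3 counts, or 2.31 to 2.55 CPM in a cell of the median depth of its group. Intervals of CPM and of folds cover counting error only, not the spread between cells or embryos. Those of shares of cells take each cell as independent and do not cover the spread between embryos. All 39 32-cell control cells had more counts of 8 Y-linked genes than of Xist, while all 39 32-cell mimic cells had Xist counts above Y-linked ones, so at this stage treatment and the Xist or Y-linked type of the embryo cannot be told apart. Both types were present at the 8-cell stage, with Y-linked counts the higher in 7 of 30 control cells, so the comparisons of stages also differ in type. Within each group the cells also fall into stretches of title numbers, called runs here. Runs of different treatments can adjoin: a run of 15 32-cell control cells is numbered between 2 runs of mimic cells, and the last 2 8-cell control cells follow directly on the mimic cells. The titles of all 8-cell cells end in the letter a and those of all 32-cell cells in b, so this letter and the stage cannot be told apart. In addition, 2 adjacent 8-cell mimic cells had no Xist and no Y-linked count and only 4881 and 3243 genes with a count, against up to 7492 in that group, and values that rest on them are also given without them. Markers of cumulus cells, which surround the oocyte, were near 0: their summed level reached at most 14.4 CPM in any cell.

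At the 32-cell stage the cells were split by clustering, without the 10 genes, the other pathway genes or the lineage markers, into a cluster of 35 cells and a cluster of 43 cells. All 7 ICM markers (Nanog, Fgf4, Fgfr1, Spic, Pdgfra, Gata6 and Klf2) were higher in the first and all 7 trophectoderm (TE) markers (Krt8, Krt18, Gata3, Fgfr2, Dab2, Tspan8 and Elf3) in the second, and the clusters are called ICM-like and TE-like. None of these markers was among the top 10 genes of its cluster by fold, and those of the ICM-like cluster included Tdgf1 and the Y-linked gene Zfy1. The ICM-like class held 25 of 39 control cells, all with Y-linked counts above Xist, and 10 of 39 mimic cells, so class, treatment and type are not separate. This split depended on the method: a score over the same markers called 20 mimic cells ICM-like, and clustering on all remaining genes called 14. The summed TE markers of TE-like cells ranged from 8152 to 12166 CPM in controls and from 747 to 12986 CPM in mimic cells, so the mimic TE-like class is the more mixed of the pair.

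**Figure D1:**
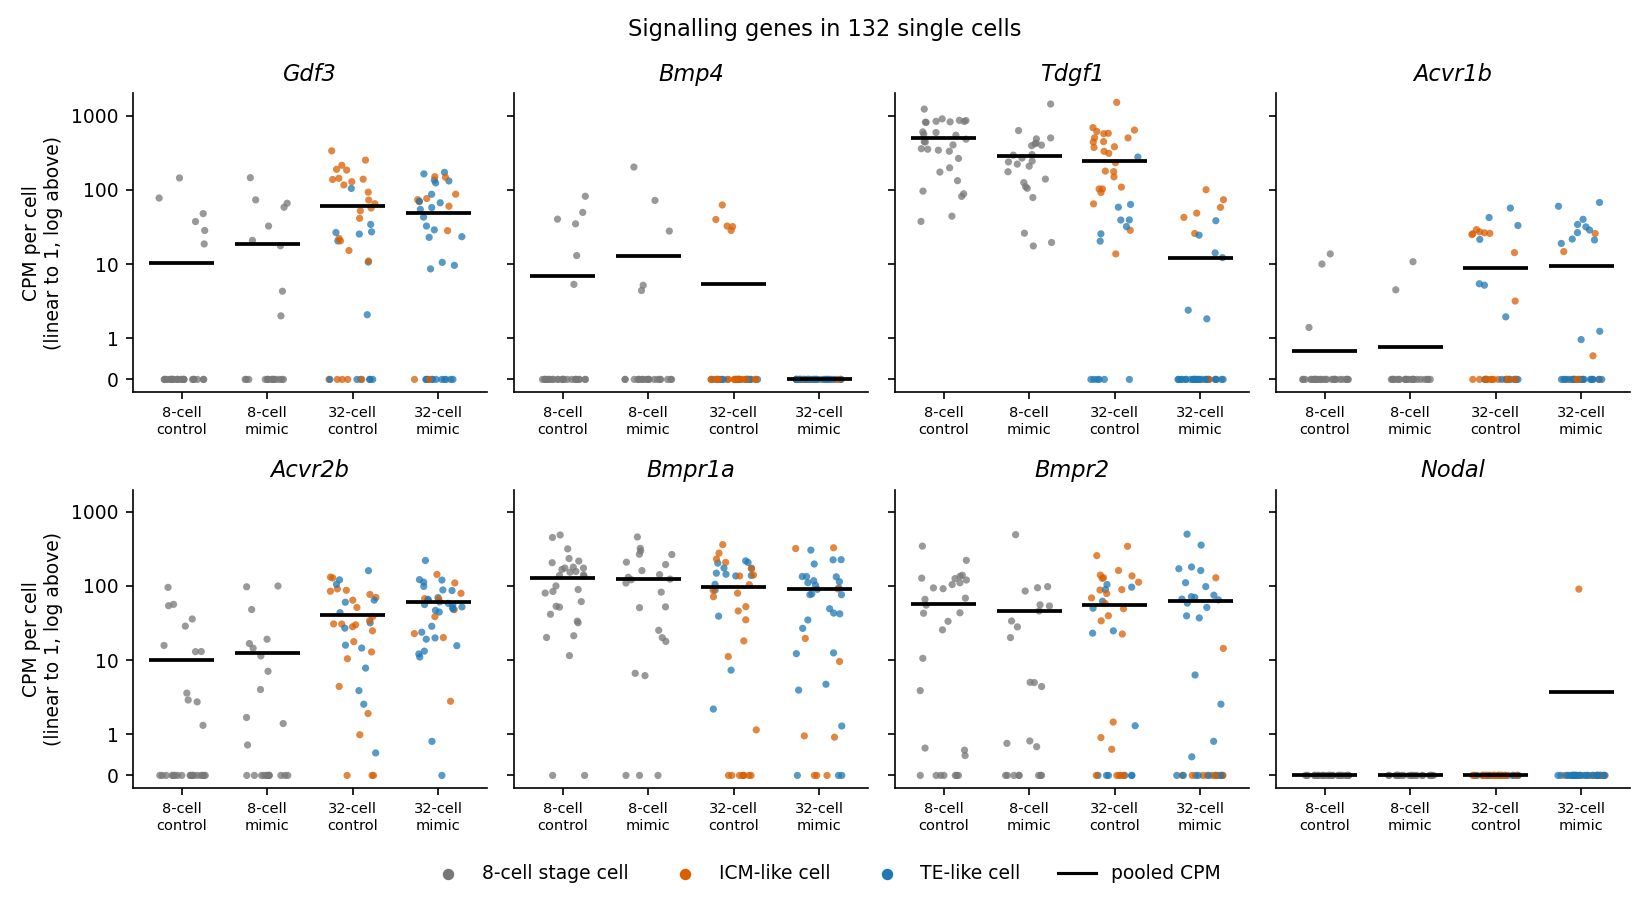
CPM of the 8 detected genes in each cell (points, linear to 1 and logarithmic above), by group, with the pooled CPM of the group as a line and 32-cell cells coloured by class. Tdgf1 had a count in all 30 and all 24 8-cell cells and in 12 of 39 32-cell mimic cells, and Nodal in 1 cell.

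Nodal, the ligand that maintains the epiblast after implantation, had counts in a single cell of all those sequenced. That cell was an ICM-like 32-cell mimic cell with 199 counts, or 90.7 CPM. It also had Tdgf1 at 73.8 CPM, Acvr2b at 109.8 CPM and Bmpr1a at 19.6 CPM, and no count of Gdf3 or Bmp4. In the 32-cell control cells the 3 counts that a count of 0 allows correspond to 0.0527 CPM over the group, and 0 of 39 cells allows a share of cells with a count of up to 7.69%, by the same limit of 3. This limits cells with a count at this depth and not cells that express the gene. Nodal did not reach the filter of any comparison. Nodal lies at chr10:61417972-61425338 on the plus strand (mm10, as all gene positions here).

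Lefty1 and Lefty2, neighbouring antagonist genes on chromosome 1 (chr1:180935022-180938400 and chr1:180893108-180899103), had 0 counts in all 4 groups. The limit for each was 0.0817 CPM in 8-cell control cells, 0.0971 CPM in 8-cell mimic cells, 0.0527 CPM in 32-cell control cells and 0.0563 CPM in 32-cell mimic cells. In shares of cells with a count, 0 of 24 8-cell mimic cells allows up to 12.5% by the limit of 3, the widest of the 4 groups, or 14.2% by the exact binomial interval. Near-identical genes can share reads, but here neither of the pair received any.

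Gdf3, a Nodal-like ligand that is also known to restrain BMPs, was the ligand found in most cells. Per cell its level ran from 0 through a median of 0 to 145.3 CPM in 8-cell controls, and over the same lowest and median values to 146.3 CPM in 8-cell mimic cells. In 32-cell cells the median was 26.7 CPM and the highest cell 337 CPM in controls, against 28.96 CPM and 173 CPM in mimic cells. The groups overlap throughout, and cells without a count were present in each. A count was found in 6 of 30, 9 of 24, 28 of 39 and 26 of 39 cells in that order, and the pooled level was 10.3, 18.9, 60.5 and 48.9 CPM.

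Gdf3 was 5.88-fold higher (95% counting interval 5.28 to 6.55) in 32-cell than in 8-cell control cells and 2.59-fold higher (2.37 to 2.84) in the corresponding mimic cells. In mimic cells with Xist and no Y-linked counts, of which only 3 were 8-cell cells, the change between stages was 0.95 on the log2 scale and not past 2-fold. Between treatments it was 1.83-fold higher in mimic cells at the 8-cell stage and 0.808 times the control level at the 32-cell stage, neither of which passed 2-fold. Within control embryos it was higher in ICM-like cells (92.7 CPM) than in TE-like cells (17.4 CPM), with 10 of 25 ICM-like cells above the highest TE-like cell. That log2 difference was 2.35, and 1.39 without the run of 24 control cells or 3.46 without the run of 15. In mimic cells the classes were closer, 58.9 CPM in ICM-like and 45.6 CPM in TE-like cells, and 2 of 29 TE-like cells were above the highest ICM-like cell. This closeness depended on the run: without the third run of mimic cells the log2 difference was 1.11, past 2-fold higher in ICM-like cells, and without the first run it was -0.25. TE-like mimic cells had 2.62 times the level of TE-like control cells. The runs of title numbers differed as well: pooled Gdf3 was 61.2, 22.6 and 61.6 CPM in the 3 runs of 32-cell mimic cells and 62.8 and 57.0 CPM in the 2 runs of control cells.

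Bmp4, the BMP ligand of the early embryo, was found in few cells. It had a count in 6 of 30 8-cell control cells (highest 82.2 CPM), 5 of 24 8-cell mimic cells (highest 204 CPM), 5 of 39 32-cell control cells (highest 62.7 CPM) and 0 of 39 32-cell mimic cells, with a median of 0 in each group. A single cell held 57.3% of the counts in 8-cell mimic cells. The pooled levels were 6.91, 13.0, 5.43 and 0 CPM. No ratio is given between the 32-cell groups, since the control counts come from 5 cells and the mimic level is 0. The size of any log2 change between them, as given below, depends on the pseudocount. The shares behind these levels were 12.8% of 32-cell control cells (exact binomial 95% interval 4.30 to 27.4%) and 0 of 39 mimic cells. The latter allows up to 7.69% of cells with a count by the limit of 3, or 9.03% by the exact binomial interval.

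All 5 32-cell control cells with Bmp4 were ICM-like, between 28.4 and 62.7 CPM, and none of the 14 TE-like control cells had a count. They all came from 1 of the 2 runs of control cells, 5 of its 15 cells, and the other run of 24 cells, 17 of them ICM-like, had none. Without that run both treatments are at 0 and no difference remains. Each of the 5 also had Tdgf1, between 443 and 693 CPM. Bmp4 lies at chr14:46383520-46390669 on the minus strand, and 2 genes annotated on the opposite strand overlap it, with 7 and 0 counts over all cells. Since strand was not used in the library, reads of such a pair cannot be told apart.

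**Figure D2:**
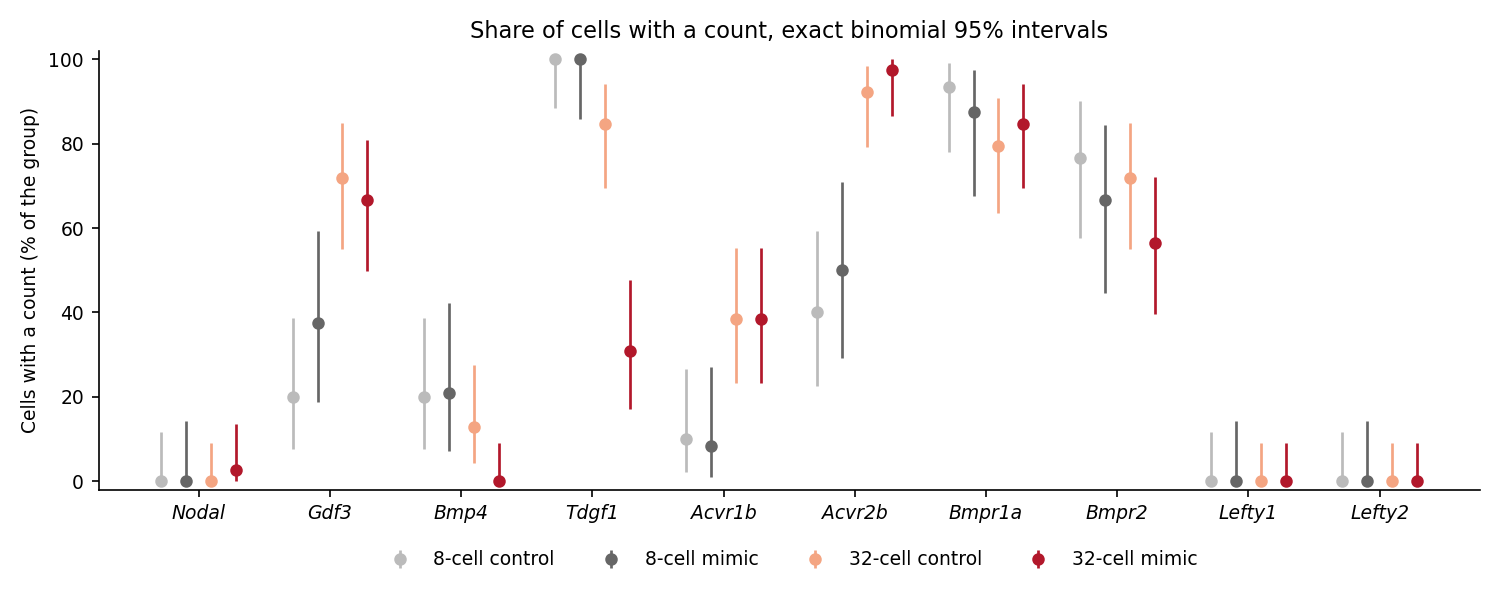
Share of cells of each group with a count of each of the 10 genes (points), with exact binomial 95% intervals. They take each cell as independent, although cells share embryos, so they do not compare treatments, and for a share of 0 they reach higher than the limit of 3. The Tdgf1 interval was 69.5 to 94.1% in 32-cell control and 17.02 to 47.6% in 32-cell mimic cells.

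Tdgf1, which encodes the co-receptor CRIPTO, was found in most cells of every group other than the 32-cell mimic cells. In 8-cell control cells it ran from 37.6 CPM through a median of 446 CPM to 1233 CPM, and in 8-cell mimic cells from 17.6 through 242 to 1441 CPM. At the 32-cell stage control cells ran from 0 through a median of 109.3 to 1519.5 CPM, and mimic cells from 0 through a median of 0 to 100.7 CPM. Both 8-cell groups had a count in every cell, 33 of 39 32-cell control cells had one, and 12 of 39 32-cell mimic cells did. The ranges overlap, but 22 of 39 32-cell control cells were above the highest mimic cell and none of the mimic cells was above the control median.

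The pooled level of Tdgf1 was 504 CPM (497 to 512) in 8-cell control cells, 288 CPM (282 to 294) in 8-cell mimic cells, 249 CPM (245 to 253) in 32-cell control cells and 11.9 CPM (11.0 to 12.9) in 32-cell mimic cells. The 32-cell mimic level was thus 20.9-fold below (19.3 to 22.6) the control level, a log2 change of -4.27 and the 6th lowest among the 9900 genes tested. At the 8-cell stage it was 1.75-fold lower in mimic cells. From the 8-cell to the 32-cell stage it was 2.03-fold lower in control and 24.1-fold lower in mimic cells. The control value lay at the limit and was not past 2-fold after thinning, as a mean over single cells or without the run of 24 32-cell control cells (log2 change -0.96, -0.96 and -0.89), and it was 0.32 without the run of 28 8-cell control cells. In bulk or pooled values, fewer cells with the transcript and less of it per cell cannot be told apart, but here the cells are separate: the 12 mimic cells with a count had a median of 32.2 CPM and the 33 control cells with one a median of 180 CPM, so both the share of cells and the level in those cells were lower. Thinning every cell to 522178 counts left the numbers of cells with Tdgf1 at 33 and 12.

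The difference was present within each class. In control embryos all 25 ICM-like cells had Tdgf1, from 13.7 through a median of 332 to 1519.5 CPM, and 8 of 14 TE-like cells did, up to 278 CPM. In mimic embryos 6 of 10 ICM-like cells had it, with a median of 34.3 and a highest value of 100.7 CPM, and 6 of 29 TE-like cells, up to 38.5 CPM. Pooled Tdgf1 was 400 against 38.8 CPM in ICM-like control and mimic cells, 10.3-fold lower (9.45 to 11.3), and 45.7 against 3.28 CPM in TE-like cells, 13.9-fold lower (11.6 to 16.8). The TE-like value leaned on 1 control cell: without the cell of each set with most Tdgf1 counts, TE-like cells had 20.7 against 2.07 CPM, 9.97-fold lower. Of the ICM-like control cells, 21 of 25 were above every ICM-like mimic cell. Within each treatment the ICM-like class was the higher, 8.77-fold in control and 11.8-fold in mimic cells, and in control cells 18.4-fold without the cell of each class with most Tdgf1 counts, which need not be the one with the highest CPM.

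**Figure D3:**
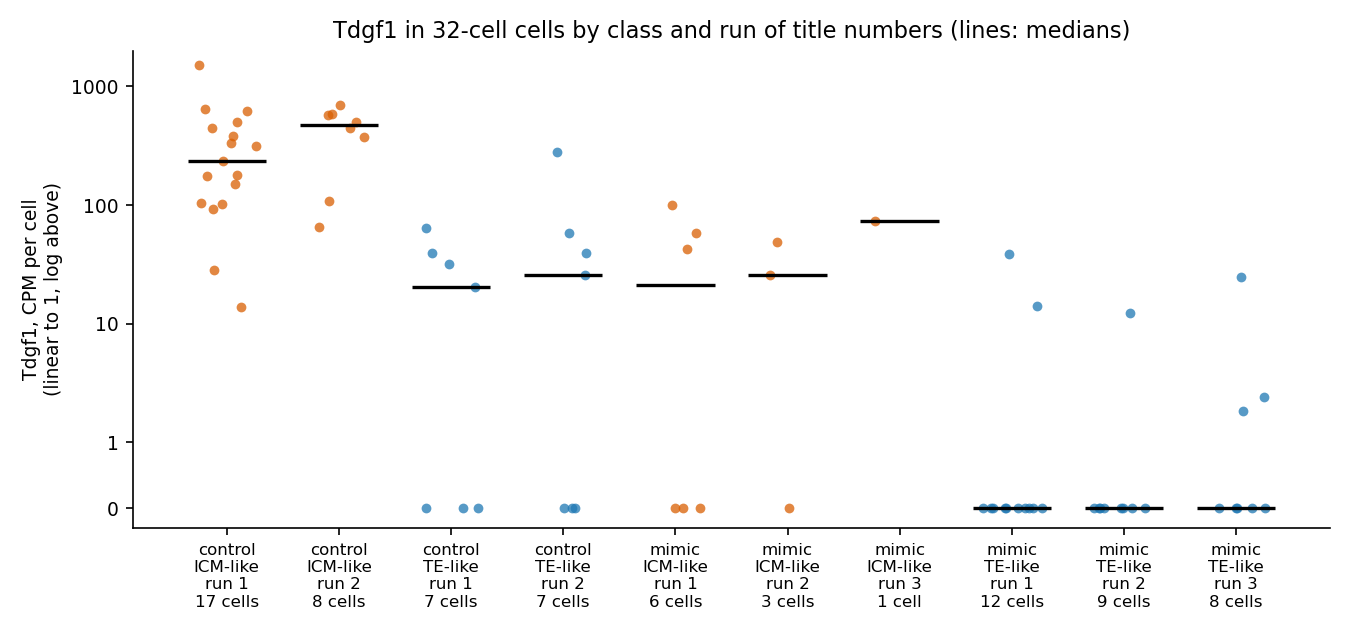
Tdgf1 in CPM in each 32-cell cell (points, linear to 1 and logarithmic above) by treatment, class and run of title numbers, with medians as lines. ICM-like cells of the 2 control runs had medians of 233 and 474 CPM, and the highest mimic cell had 100.7 CPM.

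Both control runs lay above all mimic runs. Pooled Tdgf1 was 233 and 273 CPM in the 2 control runs, and 14.2, 7.40 and 13.9 CPM in the 3 mimic runs. The control run at 273 CPM is the one numbered between the mimic runs at 7.40 and 13.9 CPM. In ICM-like cells the control runs had 379 and 434 CPM, and the mimic runs 37.0, 24.4 and 73.8 CPM over 6, 3 and 1 cells. A run is only a stretch of numbers in the titles, and what it stands for is not given.

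Among 8-cell cells both treatments held both Xist and Y-linked types, so Tdgf1 could be compared within each. In cells with Y-linked counts above Xist it was 635 CPM in 7 control cells and 259 CPM in 8 mimic cells, 2.45-fold lower, and all 7 control cells were above the mimic median. In cells with Xist above Y-linked counts, a grouping chosen after the values were known, 23 control cells had 449 CPM and 14 mimic cells 227 CPM, 1.98-fold lower. Within control cells it was 492 CPM in the 16 cells with Xist alone, 333 CPM in the 7 cells with both and Xist the higher, and 635 CPM in the 7 cells with Y-linked counts above Xist. Within mimic cells it was 206 CPM in the 3 cells with Xist alone and 232 CPM in the 11 cells with both and Xist the higher. The grouping by Xist above Y-linked counts thus mixes types in unlike numbers. Treatments cannot be compared within a type among 32-cell cells. The highest 8-cell mimic cell, at 1441 CPM, was 1 of the 2 cells with neither Xist nor Y-linked counts. Without those 2 cells the 8-cell mimic level was 236 CPM, 2.13-fold below the control, which passes 2-fold. From that level to the 32-cell mimic cells it was 19.8-fold lower. All but 2 of the 8-cell control cells are in 1 run, of 28 cells. Against the 2 control cells of the other run (37.6 and 354 CPM, pooled 199.7 CPM), mimic cells were higher by 0.53 on the log2 scale. With 2 cells, whether the difference depends on the run cannot be told. Tdgf1 lies at chr9:110939603-110946158 on the minus strand and no annotated gene overlaps it.

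Acvr1b encodes ALK4, the type I receptor for Nodal and activins. It was barely present at the 8-cell stage, with a count in 3 of 30 control and 2 of 24 mimic cells (highest 13.7 and 10.8 CPM), and was found in 15 of 39 cells of each 32-cell group (highest 57.0 and 67.8 CPM). The median was 0 in all 4 groups. The pooled level was 0.681, 0.776, 8.98 and 9.56 CPM, so that the 32-cell groups were 13.2-fold (8.84 to 20.6) and 12.3-fold (8.18 to 19.4) above the 8-cell groups and 1.06-fold apart from each other. The 3 runs of 32-cell mimic cells had 16.3, 3.96 and 7.07 CPM and the 2 control runs 9.70 and 7.92 CPM. Without the first mimic run the log2 change between treatments was -0.63 instead of 0.08. Acvr1b was higher in TE-like than in ICM-like cells, 13.97 against 5.25 CPM in controls and 11.6 against 3.08 CPM in mimic cells. In controls, 3 of 14 TE-like cells were above the highest ICM-like cell. Without the cell of each class with most counts the log2 change in controls was -0.60 instead of -1.26, no longer past 2-fold. In mimic cells classed by the marker score it was -0.80 instead of -1.63.

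Acvr2b encodes an activin type II receptor that also binds Nodal. Its median went from 0 CPM in 8-cell control cells (highest 95.6 CPM) and 0.370 CPM in 8-cell mimic cells (highest 99.9 CPM) to 30.7 CPM (highest 160.8) in 32-cell control and 52.1 CPM (highest 221) in 32-cell mimic cells. It had a count in 12 of 30, 12 of 24, 36 of 39 and 38 of 39 cells. Pooled, it was 4.12-fold higher at the 32-cell stage in controls and 4.86-fold higher in mimic cells. In controls this was lost when both stages were held to cells in which Y-linked counts exceeded Xist: the 7 such 8-cell cells had 21.2 CPM against 40.9 CPM, a log2 change of 0.91 that is not past 2-fold. The 32-cell mimic level of 61.3 CPM was above the control level of 40.9 CPM but not past 2-fold, and 26 of 39 mimic cells were above the control median. The classes lay close together, with 38.5 CPM in ICM-like and 44.1 CPM in TE-like control cells. A counted gene on the opposite strand, Gm47320, overlaps Acvr2b, and reads of the pair cannot be told apart.

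Bmpr1a encodes ALK3, the main type I receptor for BMP4, and was the receptor with the highest level per transcript length in both 8-cell groups, 21.5 CPM per kb in controls and 21.1 in mimic cells. Its per-cell level ran from 0 in every group to 487, 458, 361 and 327 CPM, with medians of 117.7, 115.4, 87.4 and 49.3 CPM. It had a count in 28 of 30, 21 of 24, 31 of 39 and 33 of 39 cells. The pooled levels were 128, 126, 95.9 and 91.6 CPM, and none of the 4 comparisons of stage and treatment passed 2-fold. In control cells it was 121 CPM in TE-like and 77.003 CPM in ICM-like cells, a log2 change of -0.65 that lay in 1 run: it was -2.74 without the run of 24 control cells and 0.09 without the run of 15. All 14 TE-like cells had a count, and 8 of 25 ICM-like cells had none.

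Bmpr2 encodes the type II BMP receptor. Its pooled level lay between 46.1 and 62.7 CPM in the 4 groups, while the median was 43.2 CPM in 8-cell control, 4.69 CPM in 8-cell mimic, 39.6 CPM in 32-cell control and 2.54 CPM in 32-cell mimic cells. The highest cells had 345, 492, 343 and 500 CPM. A single cell held 44.0% of the counts of 8-cell mimic cells and was 1 of the 2 cells named above. Without both the level was 28.6 CPM against 57.0 CPM in controls, and the 32-cell mimic cells were 2.19-fold above it.

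The class pattern of Bmpr2 pointed opposite ways in the treatments. In controls it was 75.1 CPM in ICM-like and 28.7 CPM in TE-like cells, 2.62-fold higher in ICM-like cells, with a count in 20 of 25 and 8 of 14 cells. In mimic embryos it was 12.7 CPM in ICM-like and 78.7 CPM in TE-like cells, with a count in 2 of 10 and 20 of 29 cells, 6.19-fold lower in ICM-like cells. Without the cell of each class with most Bmpr2 counts the mimic values were 2.19 and 59.7 CPM. The direction of the mimic value rests on 10 ICM-like cells, and the difference between the treatments was not tested. The 3 runs of 32-cell mimic cells had 22.5, 67.8 and 108.4 CPM and the 2 control runs 55.6 and 54.9 CPM.

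**Figure D4:**
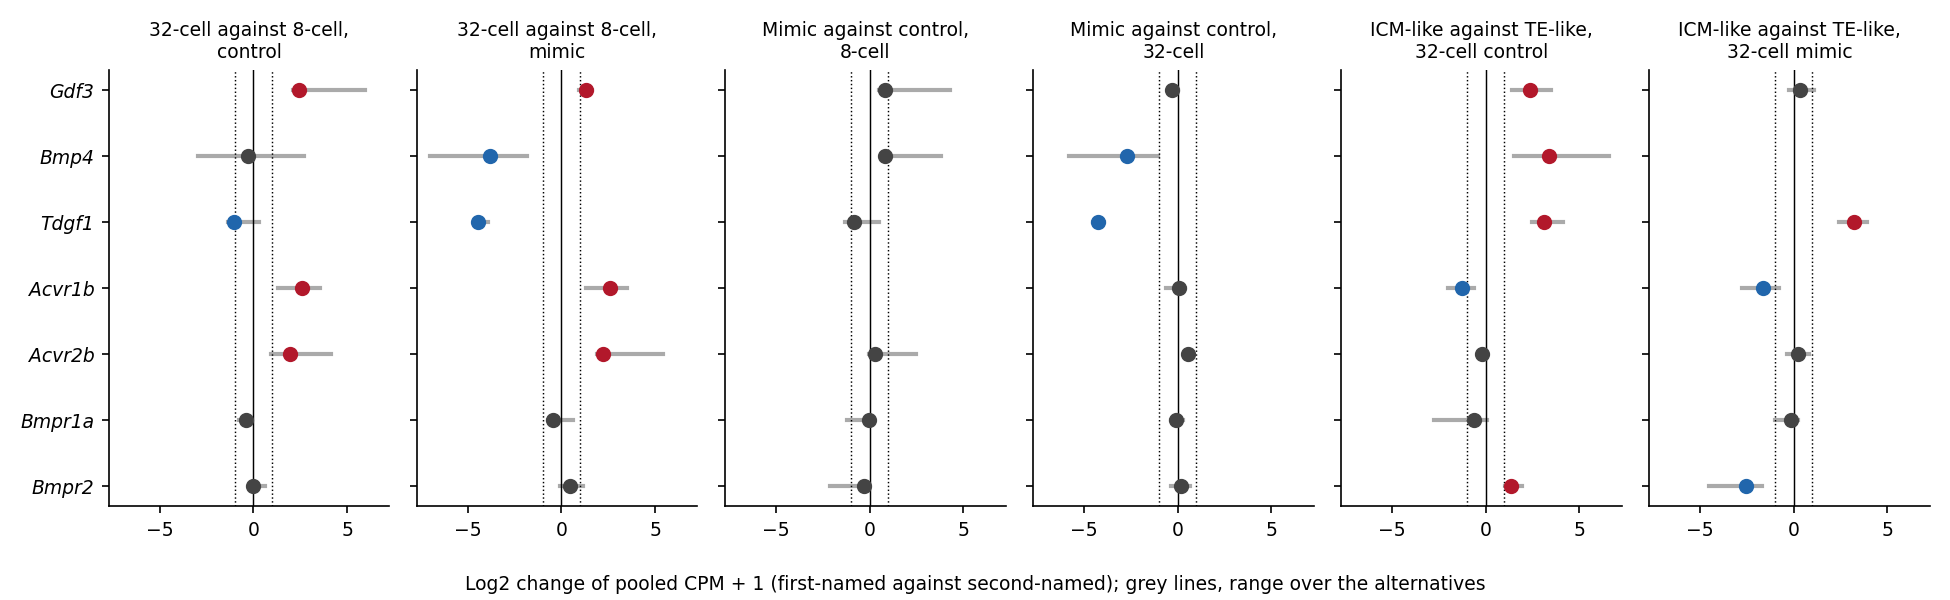
Log2 change of pooled CPM + 1 of the 7 genes that reached the filter, in 6 comparisons (dots: red, at least 2-fold higher, blue, at least 2-fold lower, dark grey, neither), with the range over the alternative settings as a grey line and 2-fold as dotted lines. Tdgf1 lay at -4.27 between treatments at the 32-cell stage, with a range from -4.49 to -3.91.

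Read per transcript length, the order of the levels differed between the stages. In 8-cell control cells Tdgf1 led with 261 CPM per kb, followed by Bmpr1a (21.5), Gdf3 (4.84), Bmpr2 (4.42), Bmp4 (3.35), Acvr2b (3.13) and Acvr1b (0.154). In 32-cell control cells the order was Tdgf1 (129), Gdf3 (28.5), Bmpr1a (16.1), Acvr2b (12.9), Bmpr2 (4.29), Bmp4 (2.63) and Acvr1b (2.03). In 32-cell mimic cells Gdf3 led with 22.998 CPM per kb, ahead of Acvr2b (19.3), Bmpr1a (15.4) and Tdgf1 (6.17). In 8-cell mimic cells Tdgf1 led as well, with 148.98 CPM per kb against 21.1 for Bmpr1a. Every gene in these orders other than Tdgf1 had cells at 0 in all 4 groups, and the ranges over single cells of such neighbours overlap.

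Genes were compared where they had at least 5 pooled CPM and counts in at least 5 cells of either group, and a difference of at least 1 in log2(CPM + 1) is called past 2-fold. From the 8-cell to the 32-cell stage in controls, 7 of the 10 genes could be compared, Nodal, Lefty1 and Lefty2 being too low, and 3 were higher (Gdf3, Acvr1b and Acvr2b) and 1 lower (Tdgf1), where 31.1% of all 10118 genes compared were higher and 21.9% lower. In mimic cells the same 3 were higher and Tdgf1 and Bmp4 were lower, of 7 compared, beside 32.2% and 19.1% of all genes. Between treatments at the 8-cell stage 0 of 6 passed in either direction, beside 9.09% higher and 10.0% lower of all genes. In 32-cell cells 0 of 7 were higher and 2 were lower (Tdgf1 and Bmp4), beside 11.1% and 6.96% of all. ICM-like against TE-like control cells gave 4 higher (Gdf3, Bmp4, Tdgf1 and Bmpr2) and 1 lower (Acvr1b) of 7, beside 16% and 10.3% of all genes. In mimic cells 1 was higher (Tdgf1) and 2 were lower (Acvr1b and Bmpr2) of 6, beside 7.48% and 14.6%.

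Within the classes, Tdgf1, Bmp4 and Bmpr2 were lower in ICM-like mimic than in ICM-like control cells, beside 14.3% of all genes lower and 9.88% higher, and Tdgf1 lower but Gdf3 and Bmpr2 higher in TE-like mimic than in TE-like control cells, beside 7.60% lower and 17.2% higher of all genes. The 8-cell comparison depended on the cells taken. Without the 2 cells with neither Xist nor Y-linked counts 1 of 6 was lower (Tdgf1) and 0 higher, beside 9.81% and 8.93% of all genes. With Xist above Y-linked counts 1 of 6 was higher (Bmp4, 20.4 against 2.78 CPM) and 0 lower, beside 9.86% and 10.5%. With Y-linked counts above Xist 2 of 3 were lower (Tdgf1 and Bmpr2), beside 17.4% lower and 14.9% higher, and with Xist alone 2 of 3 were lower (Tdgf1 and Bmpr1a), beside 22.5% lower and 10.5% higher. Between stages in mimic cells without those 2 cells 4 of 7 were higher, Bmpr2 now among them, and 2 lower, beside 31.8% and 19.3%. With few members, these counts are read as a list of genes and not as a share. The comparisons share groups, so they are not independent of one another.

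The genes were also found in the same cells. Among 32-cell cells, 25 of 39 control cells had both Gdf3 and Tdgf1, against 8 of 39 mimic cells. Gdf3 had a count in 28 control and 26 mimic cells and Tdgf1 in 33 and 12. Whether this or any joint count below differs from what the counts of the single genes give was not tested. All 4 of Gdf3, Tdgf1, Acvr1b and Acvr2b were found together in 9 of 39 control and 3 of 39 mimic cells at the 32-cell stage, and in 0 of 30 and 1 of 24 cells at the 8-cell stage. The pair of BMP receptors, Bmpr1a and Bmpr2, was found in 22 of 30, 14 of 24, 22 of 39 and 20 of 39 cells. Bmp4 together with both its receptors was found in 5, 4, 3 and 0 cells. Each cell had counts of 1 to 6 of the genes, and the median was 5 in 32-cell controls and 4 in each of the other groups.

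Across the 39 32-cell control cells the rank correlation of Gdf3 and Tdgf1 was 0.50, and in the 39 mimic cells it was 0.16. Acvr1b ran the other way from Tdgf1 in control cells, at -0.35. These are descriptions over cells that share embryos and differ in depth and class. For the 4 genes with a count in at least 50% of the cells of both 32-cell groups, the genes most alike by mean rank correlation over 6162 genes were Timm10, Impdh2 and Smc5 for Gdf3, Skap2, Syap1 and Pias4 for Acvr2b, Atp6v0e, Vbp1 and Rassf7 for Bmpr1a, and Arf4, Mul1 and Usp53 for Bmpr2. All 12 mean correlations lay between 0.39 and 0.49. They are the highest of 6162 genes over the same cells, and how high the top of so many unrelated genes would reach was not tested. For Tdgf1, which fell outside that rule, the most alike gene in control cells was Ppm1a at 0.80, followed by Deptor, Glrx, Sat1 and Fn1 between 0.73 and 0.75. This list was made after the values were seen.

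The rest of the pathway was described with 57 further genes in 7 roles, of which 50 had a count in some cell. From the 8-cell to the 32-cell stage in controls 25 could be compared, 7 of them higher and 7 lower, beside 31.1% and 21.9% of all genes compared, with a median log2 change of 0.15 beside 0.21 over the same genes. Among those higher were Pcsk6, a convertase that cleaves Nodal precursors (10.7 to 96.5 CPM, and 6.47 to 91.8 CPM without the cell of each group with most counts), Cfc1, which encodes the other EGF-CFC co-receptor (0 to 8.07 CPM, in 0 of 30 and 16 of 39 cells, and 4.37 CPM without the cell with most counts, under the filter), and Smad5, a BMP SMAD (0.272 to 16.03 CPM, and 0 to 13.4 CPM without those cells). Skil and Tgif1, nuclear repressors of SMAD activity, were 3.93-fold and 5.92-fold higher, the latter 10.6-fold without the cell of each group with most counts. The ligand genes Inhbb and Gdf9, the AMH receptor gene Amhr2 and Fstl3, whose product binds activins, were lower: Amhr2 went from 105.6 to 5.75 CPM and Fstl3 from 63.3 to 12.4 CPM. In mimic cells 28 could be compared, 10 higher and 6 lower, beside 32.2% and 19.1% of all genes, with a median of 0.46 beside 0.29.

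**Figure D5:**
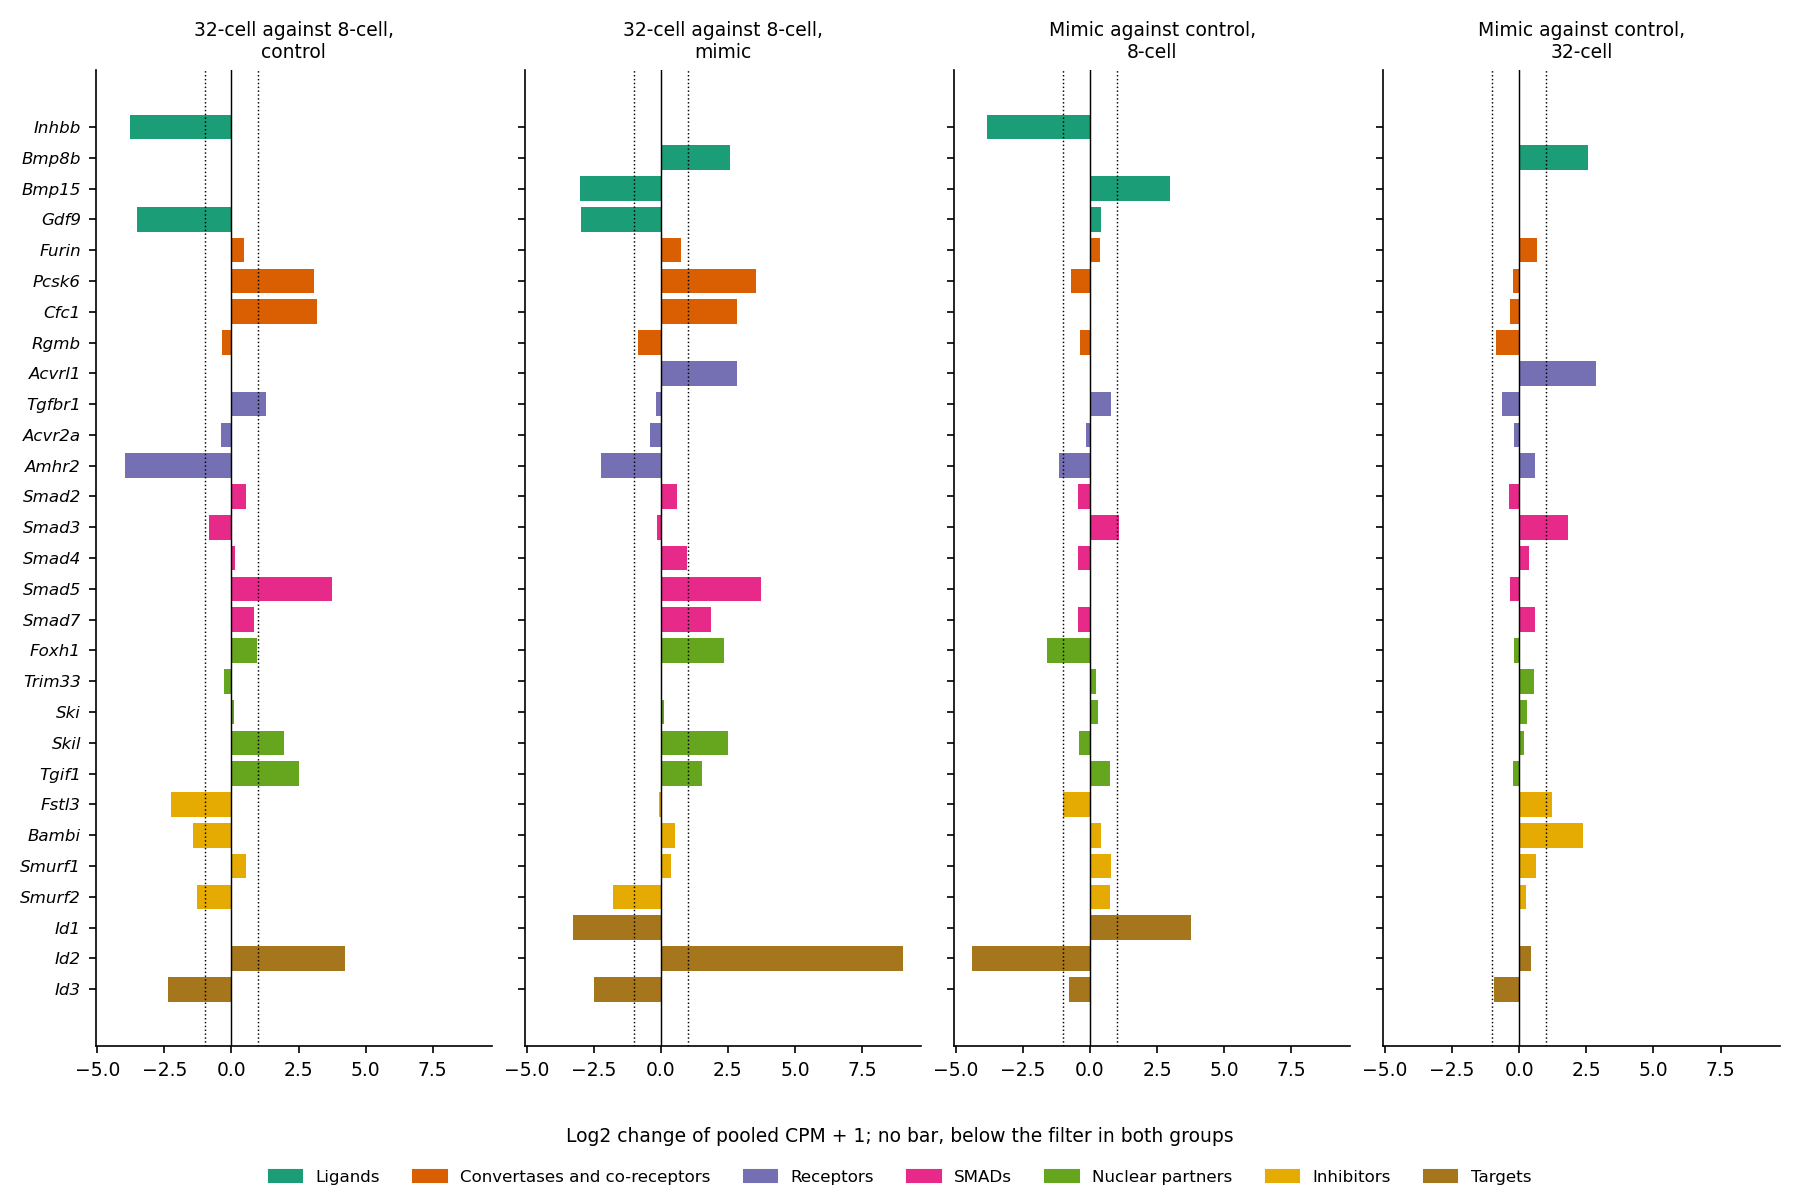
Log2 change of pooled CPM + 1 of the 29 of 57 further pathway genes that reached the filter in at least 1 of 4 comparisons (bars, coloured by role; no bar where neither group reached it), with 2-fold as dotted lines. Id2 was 9.03 higher on the log2 scale at the 32-cell stage in mimic cells and -4.39 between treatments at the 8-cell stage.

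The Id genes, which BMP signalling commonly induces, did not move as a set. Id2, also known as a TE gene, had 20.7 CPM in 8-cell control cells (9 of 30 with a count, and 10.4 CPM without the cell with most) and 0.0324 CPM in 8-cell mimic cells, a single count in 1 of 24 cells, the 2nd lowest change of 9152 genes compared. Id2 was found in all 39 cells of each 32-cell group, at 403 and 540 CPM, and in both groups it was far higher in TE-like cells (764 against 134 CPM in controls, 685 against 92.0 CPM in mimic cells). Id1 was found in 0 of 30 8-cell control and 5 of 24 8-cell mimic cells, at 12.5 CPM, or 6.99 CPM without the cell with most counts. Id3 was lower at the 32-cell stage in both treatments, from 263 to 50.6 CPM in controls and from 150.8 to 26.03 CPM in mimic cells, and in controls it was 7.72-fold higher in ICM-like cells, or 12.2-fold without the cell of each class with most counts.

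Between treatments 3 of 25 further pathway genes were higher and 5 lower at the 8-cell stage, beside 9.09% and 10.0% of all genes, with a median log2 change of -0.16 beside 0.01 over all genes. Besides the Id genes, Inhbb was at 13.8 and 0.0324 CPM, Foxh1, a partner of SMAD2 and SMAD3, at 6.37 and 1.42 CPM, and Bmp15 at 0.0272 and 7.02 CPM in control and mimic cells. The Bmp15 value rested on 1 mimic cell, without which it was 0.709 CPM, and Foxh1 in controls was 4.70 CPM without the cell with most counts, so neither reached the filter. Inhbb in controls was 8.83 CPM without such a cell. Among 32-cell cells 5 of 25 were higher in mimic embryos and 0 lower, beside 11.1% and 6.96% of all genes, with a median of 0.29 beside 0.04. They were Acvrl1, a type I receptor (0 and 6.25 CPM), the ligand gene Bmp8b (0.0176 and 5.03 CPM), Bambi, which encodes a decoy receptor (2.496 and 16.98 CPM), Smad3 (7.01 and 26.9 CPM) and Fstl3 (12.4 and 30.1 CPM). Without the mimic cell with most counts Acvrl1 was at 4.04 CPM and Bmp8b at 3.22 CPM, under the filter, and without that cell of each group Smad3 was at 2.72 and 21.5 CPM and Bambi at 1.46 and 12.1 CPM. Foxh1 was higher in ICM-like cells in both treatments, 21.3 against 2.22 CPM in controls and 26.9 against 6.38 CPM in mimic cells, and Cfc1 was higher in TE-like cells in both, 16.1 against 2.03 CPM and 7.85 against 0.848 CPM. Without the cell of each class with most counts, controls had Foxh1 at 16.8 against 0 CPM and Cfc1 at 8.00 against 1.40 CPM, and mimic cells had Foxh1 at 19.3 against 3.56 CPM and Cfc1 at 6.59 against 0 CPM, in the same directions. Tdgf1 and Cfc1, which encode the co-receptors of 1 family, thus had their higher level in opposite classes.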

How the data were processed

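RNA of 132 single cells of mouse embryos was measured with Smart-seq2. The authors aligned reads to mm10 (the 10x Genomics reference) with STAR (version 2.5.1b) and quantified them with RSEM (version 1.3.0). What the authors deposited is a table of RSEM expected counts, all whole numbers. The study's filter (at least 3000 genes, at most 10% mitochondrial counts) removed 0 cells.

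Counts without the 13 mitochondrial genes were summed over the cells of a group or class and divided by their total. The filter, pseudocount of 1 and 2-fold limit are given with the results, and the pooling code was run on simulated counts, a check of the arithmetic that says nothing of the spread between embryos. Ratios have exact conditional 95% intervals, and shares of cells exact binomial (Clopper-Pearson) ones. 32-cell classes came from Seurat (version 5.3.0) in R (version 4.3.3): odd-ranked genes, 2000 variable genes, 25 principal components, resolution 0.8. Within each group, a new run starts where its title numbers jump by more than 10. TMM factors came from edgeR (version 4.0.16). Positions and 3' UTRs are from GENCODE M21 (GRCm38), another release than that used for counting.

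The named genes are all 10 members, up to 5 further pathway genes past 2-fold per comparison with the largest changes, the 3 most alike genes per member and the markers. Further pathway genes named beyond these were chosen after their values were seen. The members and lists were chosen with earlier results of these data known.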

Additional observations from a re-analysis of the deposited data

How the results depend on the processing

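Each count and log2 change of the members was recomputed with other pseudocounts, filters, scalings, cells and classes. Of 84 counts, 70 stayed within 1.5 times the reported value, and of 530 log2 changes 501 stayed on their side of 2-fold, of which 23 changed sign below it. The 530 include the settings with other filters, which cannot alter a log2 change. They leave out settings in which a gene fell under the filter, so they overstate how stable the changes are.

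Members past 2-fold moved as follows. With the filter at 20 CPM and 5 cells they numbered 3 between stages in mimic cells, 1 between treatments at the 32-cell stage and 3 between classes in controls. Without the cell of each group with most counts they numbered 1 between treatments at the 8-cell stage (Tdgf1), 1 at the 32-cell stage and 3 between classes in controls. Thinning left 1 between treatments at the 32-cell stage. Without the run of 15 32-cell control cells 1 was left between treatments at the 32-cell stage and 3 between classes in controls. In each of these settings the single gene left between treatments at the 32-cell stage was Tdgf1. At the 8-cell stage the count was 3 without the run of 28 control cells, which leaves 2 control cells, 2 in cells with Xist and no Y-linked counts (3 mimic cells), 2 in cells with Y-linked counts above Xist, 1 in cells with Xist above Y-linked counts and 1 without the 2 cells that had neither. The last 2 settings were chosen after seeing the data, as were the values without the cell with most counts for single classes and further pathway genes.

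Past 2-fold in only some settings were also Acvr2b between stages in controls (0.91 where Y-linked counts exceeded Xist), Gdf3 between stages in mimic cells (0.95 among cells with Xist and no Y-linked counts), Gdf3 between classes in mimic cells (1.11 without the third run), Bmpr1a between classes in controls (-2.74 without the run of 24) and Acvr1b between classes in both treatments. Bmp4 between stages in controls was -2.98 without the run of 15 32-cell cells and -1.46 where Y-linked counts exceeded Xist, against -0.30 in all cells.

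Without the run of 28 8-cell control cells the change between stages in controls reversed for Bmp4 (2.69) and Tdgf1 (0.32), and Tdgf1 between treatments at the 8-cell stage turned from -0.81 to 0.53. Tdgf1 between treatments at the 32-cell stage stayed between -4.49 and -3.91. Bmp4 ran from -5.79 to -1.06 where it reached the filter, and both ends come from the other pseudocounts against a mimic level of 0. Without the run of 15 32-cell control cells Bmp4 fell under the filter, so its range does not show a stable change. TMM scaling moved all changes by -0.13 between stages in mimic cells and by less in the other comparisons. No paired analysis was possible because the groups compared share no title numbers and no test was run. The main limits are 3 to 5 unnamed embryos per group, the tie of treatment to sex at the 32-cell stage and counts of 0 that depth cannot resolve.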
